A study of Mus musculus with 2 samples.

Results

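The inner mid-lobular zone on the central side was the class of liver spots ranked after the most central one, when the spots of each section were ordered from most central to most portal and cut into 5 zones of equal size. It held 895 of 4472 spots, 462 of 2309 in the AEG-1-WT section and 433 of 2163 in the AEG-1-C75S section. Each section came from a female mouse, 8 weeks old, naive and untreated, and the animals were littermates from a mating of heterozygotes. AEG-1-WT carried the unaltered gene, and AEG-1-C75S carried a CRISPR/Cas9 knock-in in every cell that replaces cysteine 75 of AEG-1 (gene symbol Mtdh), the residue to which palmitate is attached, with serine. Identical lobes were fixed in formalin, and 1 section of 5 μm per genotype was placed on a 10x Visium slide, on which probe pairs for the mouse transcriptome are counted by unique molecular identifiers (UMIs) in barcoded spots. A spot is a small region that can hold parts of several cells of different types, so the belt, as it is called here, is a class of spots by rank and not a cell type. Where its spots lie in the tissue was not measured. With 1 section per genotype there was no replicate, no test was possible, and no p-value is given: the 95% intervals cover counting error only.

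Blood enters the liver lobule at the portal tract, runs along sinusoids past hepatocytes and leaves at the central vein, and hepatocytes along that path express different genes. Wnt ligands and R-spondin from the endothelium of the central vein keep glutamine and drug metabolism genes active around the vein, while urea cycle, gluconeogenesis and amino acid breakdown genes are highest near the portal tract. Hepatocytes between them take part in both programs.

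The members were chosen by measured values of a pair of genes. For each spot with at most 50000 UMIs the log2 ratio of Cyp2f2, a cytochrome P450 of portal hepatocytes, over Cyp2e1, the ethanol-metabolizing cytochrome P450 of central hepatocytes, was taken with 1 UMI added to each, and the spots between the 20th and the 40th percentile within their section were the members. This ratio ran from -4.04 to -3.12 in AEG-1-WT and from -3.53 to -2.67 in AEG-1-C75S, so the same rank stood for a ratio nearer to the portal side in AEG-1-C75S. At the central limit the last spot outside and the first inside in AEG-1-WT both held 9 Cyp2f2 and 164 Cyp2e1 UMIs, and in AEG-1-C75S they held 17 and 207 outside against 28 and 333 inside. At the portal limit the last spot inside held 19 and 173 UMIs in AEG-1-WT and the next spot outside 12 and 112, with ratios of -3.121 and -3.120. The limits thus separate spots, adjacent in rank, that barely differ. Summed over the members, Cyp2e1 stood at 13168, 9731 and 6755 CPM (UMIs of a gene scaled to a common total per zone) in the most central, the inner mid-lobular and the middle zone of the AEG-1-WT section, and at 12014, 9006 and 6524 in AEG-1-C75S, and Cyp2f2 at 369.6, 773 and 1184 and 569, 1012 and 1467. These values follow from the choice.

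The members held 8742328 UMIs in AEG-1-WT against 8384762 in AEG-1-C75S, with medians of 17292 and 19113 UMIs and 4019 and 4157 genes per spot. Depth spread more widely between the spots of AEG-1-C75S, from 6864 UMIs at the 5th percentile to 34180.0 at the 95th, than in AEG-1-WT, from 12127 to 30063. With all spots drawn down to 5000 UMIs, without the shallower members (2 in AEG-1-WT, 4 in AEG-1-C75S), the median number of genes per spot was 1875 in the most central, 1856.5 in the inner mid-lobular and 1825 in the middle zone of AEG-1-WT, and 1851, 1816 and 1792 in AEG-1-C75S. The belt thus lay between its neighbours in the variety of genes as well. The sections shared 1896 barcodes, and 73 barcodes belonged to members in both. The slide's capture areas share a barcode list, and the sections were kept apart throughout.

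Markers that the choice did not use placed the members on the central side of the lobule. Cyp1a2, a cytochrome P450 of central hepatocytes, stood at 869.9, 647 and 428 CPM in the most central, inner mid-lobular and middle zone of AEG-1-WT and at 759.5, 552 and 401 CPM in AEG-1-C75S, an order used for all triplets of levels from here on. Among single spots the overlap was wide. In AEG-1-WT 20.1% of the members lay above the median of the most central zone and 82.9% above that of the middle zone, and in AEG-1-C75S 23.1% and 74.6%. Hal, the histidine ammonia-lyase of portal hepatocytes, ran the other way, with 83.4, 132 and 199 CPM and 83.9, 125 and 167 CPM. The label of a belt on the central side thus holds for these genes, while mid-lobular is a matter of rank. Hamp and Hamp2, which encode the iron hormone hepcidin and its paralog, and Igfbp2, an insulin-like growth factor binding protein, all used as mid-lobular markers, were highest in the middle zone in both sections and intermediate here: Hamp stood at 860, 957 and 1043 CPM and 452, 503 and 564 CPM, Hamp2 at 715, 759.5 and 846 and 626, 753 and 821, and Igfbp2 at 868, 1028 and 1223 and 1935, 2309 and 2684. None of these 3 genes was past a log2 ratio of 0.32 against either neighbour in both sections.

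A second axis, drawn from Hal, Hsd17b13 and Gls2 over Cyp1a2 and Oat with neither of the choosing genes in it, put 54.5% of the AEG-1-WT members (95% exact binomial interval 49.9 to 59.2%) and 50.1% of the AEG-1-C75S members (45.3 to 54.9%) into the same zone. A further 28.1% and 26.8% fell into its most central zone and 15.8% and 19.2% into its middle zone. In its most portal zone lay 0 of 462 members of AEG-1-WT, which allows a share of up to 0.649% (3 counts of the total), and 1 of 433 of AEG-1-C75S. In its outer mid-lobular zone lay 1.52% and 3.70% of the members. The exact limits of the belt thus depended on the genes that drew it.

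**Figure D1:**
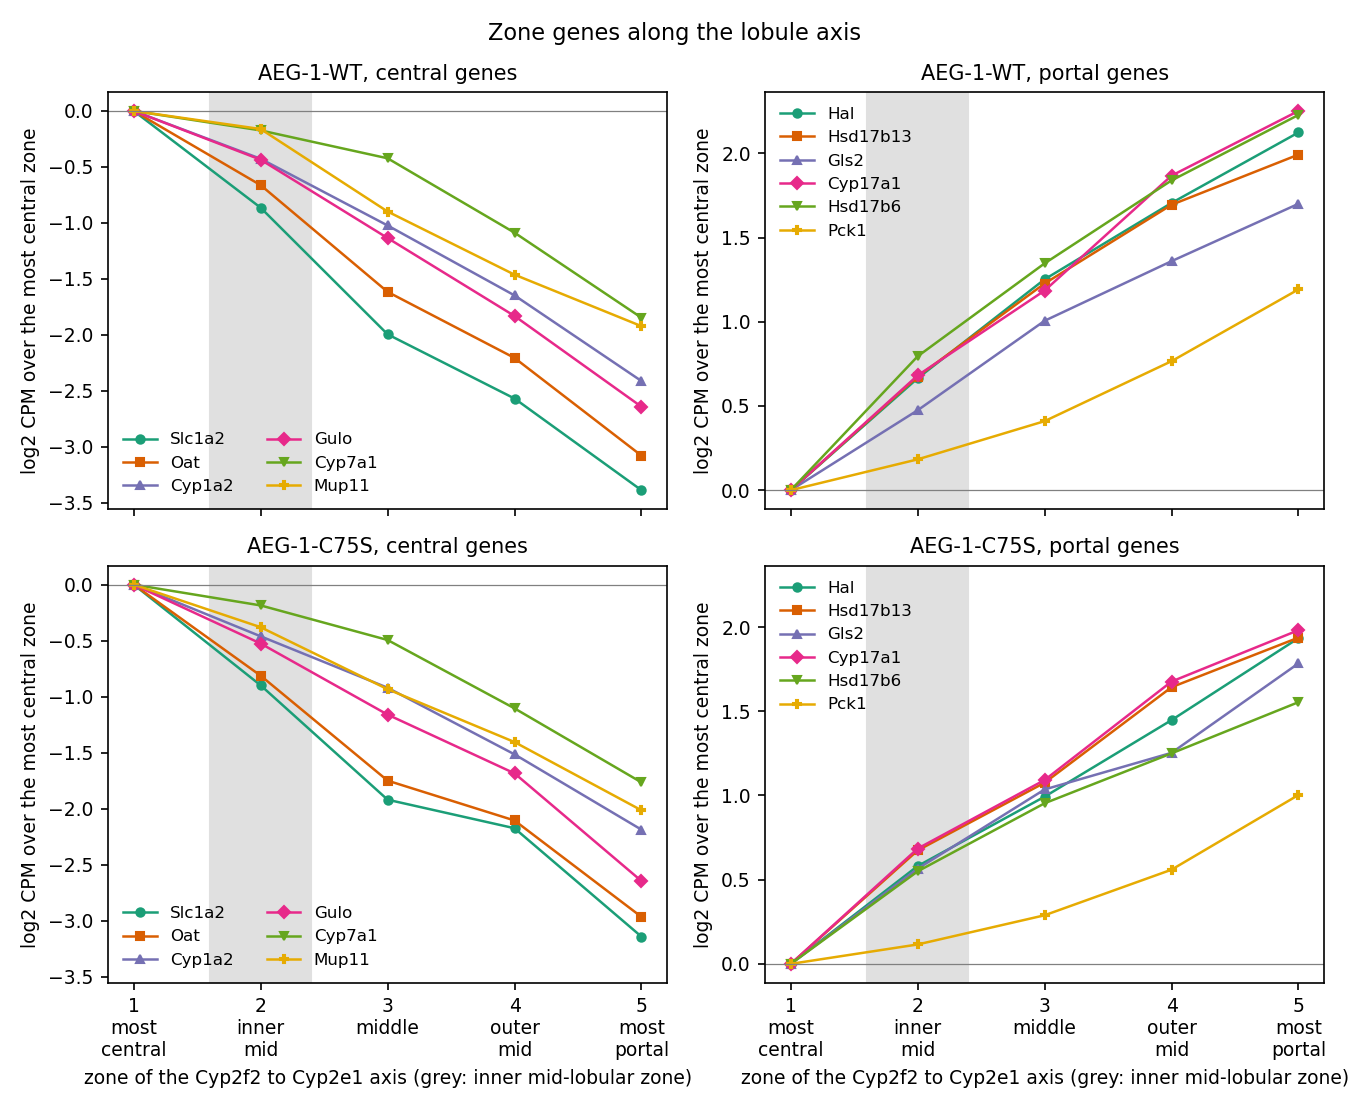
Log2 CPM over the most central zone (vertical axis) along the 5 zones of the lobule axis (horizontal axis) for 6 central genes (left) and 6 portal genes (right) in AEG-1-WT (top) and AEG-1-C75S (bottom), 1 section each, with the inner mid-lobular zone in grey. In the grey band Slc1a2 and Oat are farthest below their central level and Cyp7a1 nearest to it in AEG-1-C75S, with Cyp7a1 and Mup11 nearest in AEG-1-WT, and every portal gene is above 0.

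Against the most central zone, 92 of 8497 genes compared were lower in the belt by a log2 ratio of 0.32 or more in both sections (1.08%) and 67 were higher (0.789%). A gene was compared where it had at least 100 UMIs over both zones in each section. With the zones drawn from other genes, 46 of the 92 and 30 of the 67 were among the genes called. Among genes with at least 500 UMIs over both zones in each section, those farthest down included the glutamate transporter Slc1a2, Oat and Slco1a1, but also the haemoglobin gene Hba-a2, and those farthest up included Hal, Sds and Cyp17a1. Which side was the larger depended on the scaling: 64 genes were lower and 111 higher with totals taken without the 20 most abundant genes, 66 and 108 with each ratio centred on the median gene, and 76 and 92 with edgeR's TMM factors. The median gene stood at a log2 ratio of -0.031 in AEG-1-WT against -0.046 in AEG-1-C75S. Because the zones were cut along an axis of central and portal genes, a gene that runs with that axis is ordered by the cut, and what the comparison adds is how much of its slope falls at this place.

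Slc1a2, the glutamate transporter of the innermost hepatocytes, stood at 436, 239 and 109 CPM in the AEG-1-WT section and 352, 189 and 93.1 CPM in AEG-1-C75S. Its log2 ratio over the most central zone was -0.86 in AEG-1-WT (95% exact binomial interval -0.94 to -0.79) and -0.90 in AEG-1-C75S (-0.99 to -0.81), and over the middle zone it was 1.13 and 1.02. Oat, the ornithine aminotransferase that feeds glutamate synthesis around the vein, stood at 1844, 1165 and 602 and 1412, 803 and 419.7 CPM, with log2 ratios of -0.66 and -0.81 over the most central zone and 0.95 and 0.94 over the middle zone. In this and all pairs that follow AEG-1-WT comes first. For both genes the step on the portal side of the belt was larger than that on its central side. Slc13a3, a carboxylate transporter, had ratios to the most central zone of -1.01 and -0.96 on 193 and 193 UMIs in the belt, and stood at 44.5, 22.1 and 11.9 and 44.7, 23.02 and 11.2 CPM. For some genes the slope ran through the belt itself. Its more central 231 and more portal 231 spots were compared in AEG-1-WT, and 217 and 216 in AEG-1-C75S. The log2 ratio (more portal over more central) was -0.37 and -0.39 for Oat, -0.46 and -0.39 for Slc1a2 and -0.20 and -0.20 for Cyp1a2. For Slc13a3 it was -0.44 and -0.80. Gstm3 had -0.12 and -0.079 and Slco1a1 -0.12 and -0.23, all with 95% intervals that include 0. Hba-a2 had 0.34 and -0.34.

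With the minimum of 500 UMIs, the other genes among the 8 farthest below the most central zone were Gstm3, Acot1, Akr1c6, Slco1a1 and Hba-a2. Gstm3, a glutathione S-transferase, had ratios of -0.64 and -0.63 and stood at 85.2, 54.8 and 30.97 and 85.1, 54.9 and 30.7 CPM. Slco1a1, an organic anion uptake carrier, had ratios of -0.54 and -0.65, Acot1, a cytosolic acyl-CoA thioesterase, -0.57 and -0.58, and Akr1c6, a hydroxysteroid dehydrogenase, -0.56 and -0.62. The haemoglobin gene Hba-a2, a red blood cell gene, was the exception in kind, with ratios of -0.79 and -0.55. Its levels went with the red blood cell list described below.

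Wnt targets of the pericentral ring were lower here than in the most central zone, or did not pass the fold. Of the list's 17 members 13 could be compared and 7 were lower than in the most central zone (1.08% of all genes were), none higher, with median log2 ratios of -0.45 and -0.40. Besides Slc1a2 and Oat these were Axin2, a scaffold that Wnt signals switch on and that limits them (-0.79 and -0.67), Rhbg, an ammonium transporter (-0.82 and -0.73), Rnf43, a ubiquitin ligase that removes Wnt receptors (-0.73 and -0.64), the transcription factor Tbx3 (-0.45 and -0.42) and the secreted Lect2 (-0.38 and -0.40). Against the middle zone 11 could be compared and 5 were higher (0.751% of all genes were), Axin2, Tbx3, Slc1a2, Oat and Lect2, with medians of 0.45 and 0.39. The list was drawn up from genes known to be central, so its direction is no independent finding. Genes of the ligand side were compared too. Rspo3, the R-spondin of the central vein, stood at 28.3, 23.9 and 18.00 and 32.04, 24.1 and 18.9 CPM, and Wnt2 at 21.9, 16.8 and 12.7 and 18.7, 14.9 and 12.4 CPM. Of 5 compared genes of central vein endothelium 1, Wnt2, was lower than in the most central zone (-0.38 and -0.33), and 2, Rspo3 and Kit, were higher than in the middle zone (0.41 and 0.35 for Rspo3, 0.45 and 0.51 for Kit).

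Target genes of Wnt signals are bound by TCF/LEF factors, and the core letters CTTTGAT were searched on both strands in the 250 bases before each RefSeq gene start (GRCm38.p6). Of the 17 list members 12 had such stretches, 17 stretches in all. In 3 members, Lect2, Slc1a2 and Sp5, a stretch held the letters. Of all 32851 stretches 3.21% did, a share counted per stretch and not per gene. Lect2 and Slc1a2 are shown because both were lower than in the most central zone and higher than in the middle zone, with the matched letters in capitals. The stretch of Lect2 lies at chr13:56548539-56548788 on the minus strand and that of Slc1a2 at chr2:102706188-102706437 on the plus strand. In both the match is on the strand opposite to the gene, and its first base lies 32 bases before the start in Lect2 and 207 in Slc1a2. A match is a description of these letters and nothing is drawn from it.
Lect2: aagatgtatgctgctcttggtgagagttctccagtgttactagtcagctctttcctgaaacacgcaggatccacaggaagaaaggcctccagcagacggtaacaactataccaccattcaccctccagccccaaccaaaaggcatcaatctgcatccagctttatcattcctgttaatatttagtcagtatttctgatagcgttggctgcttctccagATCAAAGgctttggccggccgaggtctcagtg
Slc1a2: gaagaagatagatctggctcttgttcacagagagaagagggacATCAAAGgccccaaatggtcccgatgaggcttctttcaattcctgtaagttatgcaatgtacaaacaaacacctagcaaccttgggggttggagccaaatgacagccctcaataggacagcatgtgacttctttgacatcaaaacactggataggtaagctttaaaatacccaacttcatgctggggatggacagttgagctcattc

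Among 24 other pericentral genes compared, 9 were lower than in the most central zone and 8 higher than in the middle zone (0.751% of all genes were), with none in the opposite direction. Gulo, the last enzyme of vitamin C synthesis, stood at 698, 516 and 318 and 656, 456 and 293 CPM and Fitm1, a lipid droplet protein, at 59.4, 44.04 and 22.7 and 49.6, 37.3 and 21.1. For Fitm1 the larger step was on the portal side, with ratios of -0.43 and -0.41 over the most central and 0.96 and 0.83 over the middle zone. Of 33 listed pericentral cytochrome P450 genes 19 were among the genes measured and 18 could be compared. Of the 18 only Cyp2e1, which chose the spots, and Cyp1a2 were lower than in the most central zone by the fold used. Cyp2c29 had ratios of -0.16 and -0.15, Cyp3a11 -0.12 and -0.13, and Cyp2a4 ran toward the portal side with 0.17 and 0.30. Conjugating enzymes gave a like picture: of 33 compared, 3 were lower than in the most central zone, the glutathione S-transferases Gstm2, Gstm3 and Gstm6, and 1 was higher, the sulfotransferase Sult5a1 (0.58 and 0.49), beside 0.789% of all genes. Among 19 hepatocyte transporters 5 were lower, among them Slc13a3, Slco1a1 and Abcg2, and none was higher. These shares of lower genes stand beside 1.08% over all genes, and the list medians were -0.15 and -0.11 for the cytochrome P450 genes, -0.13 and -0.12 for the conjugating enzymes and -0.13 and -0.11 for the transporters.

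The portal genes named here were higher than in the most central zone in both sections. Cyp17a1, a steroid hydroxylase, stood at 85.3, 137 and 194 CPM and 68.3, 109.7 and 145 CPM, Sds, the serine dehydratase of gluconeogenesis from amino acids, at 36.4, 67.7 and 104 and 26.9, 39.6 and 48.2, and Hsd17b6, a hydroxysteroid dehydrogenase, at 100.4, 174 and 255 and 242, 355 and 469.5. With Hal, Hsd17b13, Aldh1b1, Spp1 and Cyp2f2, whose place follows from the choice of spots, they made up the 8 genes farthest above the most central zone. Hsd17b13, a lipid droplet protein, had log2 ratios of 0.67 and 0.67, Aldh1b1, a mitochondrial aldehyde dehydrogenase, 0.74 and 0.70, and Spp1, the osteopontin gene of bile duct cells, 0.80 and 0.68. Spp1 in AEG-1-C75S was the exception to an ascending order, with 49.4 CPM in the belt and 47.1 in the middle zone. The Hal level in the belt was 132 CPM in AEG-1-WT against 364 in the most portal zone, and in AEG-1-C75S 125 against 320.5.

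Of 17 other periportal genes 10 were higher than in the most central zone (0.789% of all genes were) and 8 lower than in the middle zone (0.564%). Of the 42 genes of the urea cycle and amino acid catabolism, 5 were higher than in the most central zone, Gls2, Hal, Sds, Sdsl and Etnppl, and 3 were lower, Oat, Csad and Aldh4a1, beside 0.789% and 1.08% of all genes. Urea cycle enzymes were within the fold where named here: Cps1, which fixes ammonia, had ratios of 0.18 and 0.25, and Asl, which splits argininosuccinate, 0.25 and 0.16, both under the fold used. Ass1, also a urea cycle enzyme, stood at 10.4 and 9.06 CPM on 91 and 76 UMIs in the belt and at 10.4 and 9.63 CPM in the most portal zone. Pck1, the gate of gluconeogenesis, had ratios of 0.18 and 0.12, and none of the 18 genes of gluconeogenesis and glucose sensing was past the fold against either neighbour.

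Against the middle zone, 64 of 8518 genes compared were higher by a log2 ratio of 0.32 or more in both sections (0.751%) and 48 were lower (0.564%). With the same minimum of 500 UMIs, those farthest up included Slc1a2, Oat and Npr2, and those farthest down included Hal, Gls2 and Cyp17a1. Without the 20 most abundant genes in the totals 47 were higher and 61 lower, and with each ratio centred on the median gene 49 and 60. Npr2, a natriuretic peptide receptor, stood at 154, 124 and 70.1 and 117, 79.4 and 43.98 CPM, so that its step lay on the portal side of the belt, with ratios of 0.82 and 0.85 there and -0.32 and -0.56 on the central side. Mup11, a major urinary protein that growth hormone drives, had a like pattern, with 0.74 and 0.55 against -0.16 and -0.38. It belongs to a family of near-identical copies, and whether their probes can be told apart was not examined here. Gstm2 and Gulo closed the 8 genes farthest above the middle zone with the minimum of 500 UMIs, which leaves out Fitm1, beside Slc1a2, Oat, Slco1a1 and Gstm3.

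The 8 genes farthest below the middle zone were Cyp2f2, whose place follows from the choice of spots, and Hal, Gls2, Cyp17a1, Hsd17b6, Etnppl, Sfxn1 and Ctsc. Gls2, the liver glutaminase that frees ammonia for urea, stood at 198, 275 and 397 and 124, 183 and 253 CPM with ratios of -0.53 and -0.47. Etnppl, an ethanolamine-phosphate lyase, had ratios of -0.61 and -0.59, Sfxn1, a mitochondrial serine carrier, -0.52 and -0.48, and Ctsc, a lysosomal protease, -0.46 and -0.40. In all 4 the belt stood above the most central zone in both sections too, with ratios of 0.47 and 0.57 for Gls2 and 0.35 and 0.33 for Ctsc.

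Over 8390 genes compared on both sides, 1377 (16.4%) were in descending order from the most central zone through the belt to the middle zone in both sections and 452 (5.39%) in ascending order. These orders go by sign alone. The median gene was itself in descending order, at -0.031 and -0.046 over the most central zone and 0.026 and 0.032 over the middle zone. Whether the larger descending count holds under another scaling was not tested. Past the fold on both sides were 43 genes, on the central side alone 107 and on the portal side alone 58. Both ratios share the belt's own counts, so a count that happens to be high or low moves a gene along the diagonal of the plot of both ratios.

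**Figure D2:**
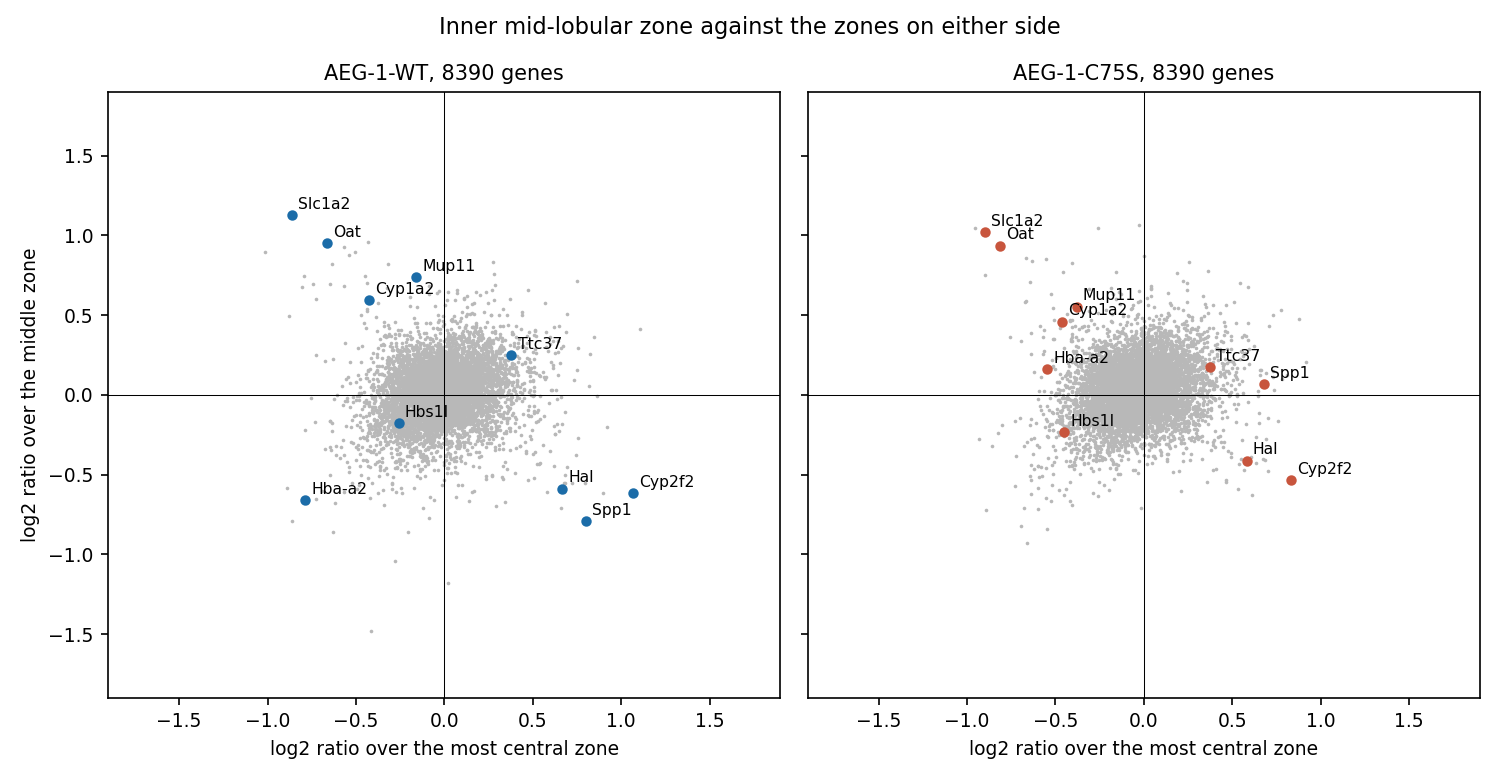
Each grey point is 1 of 8390 genes, placed by its log2 ratio in the inner mid-lobular zone over the most central zone (horizontal axis) and over the middle zone (vertical axis), in AEG-1-WT (left) and AEG-1-C75S (right), 1 section each; named genes are coloured. Slc1a2 and Oat lie at the upper left in both sections and Hal at the lower right, where Cyp2f2 lies by the choice of spots, while Hba-a2 changes its side on the vertical axis from -0.66 to 0.16.

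How much of a gene's slope lay before the belt was measured as the share of its central-to-portal log2 difference that was still kept there, where 1 is the level of the most central zone and 0 that of the most portal zone. For 71 central genes, which differed at least 2-fold between the ends in both sections with at least 300 UMIs in each, the median share was 0.799 in AEG-1-WT against 0.766 in AEG-1-C75S. The 42 portal genes of the same kind had median shares of 0.7202 and 0.7198, so that the rest of their slope lay before the belt. Cyp2e1 is among the 71 central genes, with 0.833 and 0.826, and Cyp2f2 among the 42 portal genes, with 0.609 and 0.637. The shares of Cyp2e1 and Cyp2f2 follow from the choice of spots. Cyp1a2, with 0.823 and 0.789, and Oat, with 0.785 and 0.726, were near the median of the central genes, and Slc1a2, with 0.745 and 0.714, was below it.

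The steepest central genes were Rnf43, with shares of 0.4599 and 0.532, Tnfrsf19, a receptor of the tumour necrosis factor family, with 0.416 and 0.628, the transcription factor Bach2 with 0.628 and 0.476, Gstm6 with 0.7603 and 0.459, Akr1c6 with 0.613 and 0.524, and Aldh1a1, a retinaldehyde dehydrogenase, with 0.635 and 0.6205. Several rested on few UMIs, 93 and 66 for Rnf43 and 80 and 80 for Tnfrsf19, and Gstm6 differed widely between the sections. Akr1c6 and Aldh1a1 rested on more UMIs: Akr1c6 stood at 331, 224 and 179 and 308, 200.2 and 181 CPM, with the larger step on the central side, and Aldh1a1 at 684, 494 and 399 and 543, 417 and 336. The broadest central genes kept most of their level in the belt. They were Cyp7a1, the rate-limiting enzyme of bile acid synthesis, with shares of 0.906 and 0.895, Cyp7b1, of the alternative bile acid route, with 0.799 and 0.9804, Cyp3a44 with 0.855 and 1.03, the nuclear receptor Pparg with 0.904 and 0.888, Ang, a secreted ribonuclease, with 0.881 and 0.846, and Mup11 with 0.916 and 0.811. The rank went by the mean of both shares. In AEG-1-WT the share of Cyp7b1 was the median of the 71 central genes, so it was broad in AEG-1-C75S only. For Cyp7a1 the levels over all 5 zones were 272, 241, 203, 128 and 75.7 CPM in the AEG-1-WT section and 101, 88.6, 71.6, 46.9 and 29.6 in AEG-1-C75S, so that the order of the zones was shared while the level was not. A share has no interval here, and genes named for an extreme share may owe part of it to counting error.

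**Figure D3:**
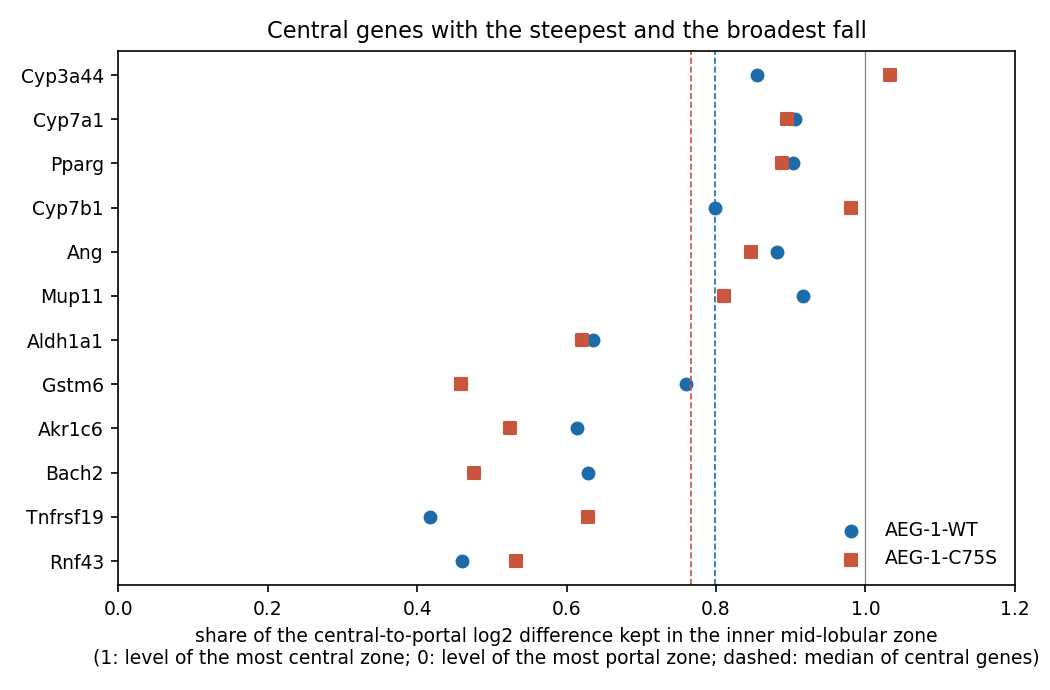
Share of the central-to-portal log2 difference kept in the inner mid-lobular zone (horizontal axis, no unit) for the 6 central genes with the steepest and the 6 with the broadest fall (vertical axis), with AEG-1-WT as circles, AEG-1-C75S as squares and the medians of 71 central genes as dashed lines at 0.799 and 0.766. Cyp7a1, Pparg and Aldh1a1 have nearly the same share in both sections, and Gstm6 and Tnfrsf19 do not.

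Few genes had their extreme in the belt. Higher than in both neighbours by 1.1-fold or more in both sections were 47 of 8390 genes (0.56%), and lower were 47 (0.56%). These counts were 79 and 94 in a narrower slice, from the 25th to the 35th percentile. With a minimum of 30 UMIs they were 110 and 129, and with 300 UMIs 13 and 12. Those with at least 500 UMIs were named. Lpar6, a lysophosphatidic acid receptor, stood at 38.5, 44.4 and 37.6 and 39.3, 46.6 and 35.2 CPM, Ttc37, a cofactor of the RNA exosome, at 30.4, 39.6 and 33.3 and 30.6, 39.7 and 35.2, the kinase Clk4, which acts on splicing factors, at 41.01, 45.5 and 39.1 and 42.9, 47.5 and 42.4, and Etfrf1, a regulator of mitochondrial electron transfer, at 65.7, 74.1 and 66.5 and 58.97, 64.9 and 56.4. The lowest were Hbs1l, which rescues stalled ribosomes, with 46.5, 38.9 and 43.9 and 41.9, 30.7 and 36.1 CPM, Cisd2, an iron-sulfur protein, with 32.3, 28.3 and 31.9 and 31.7, 27.9 and 33.6, and Otub1, a deubiquitinase, with 56.5, 49.99 and 55.5 and 60.2, 49.4 and 54.4. The steps were small: for Clk4 the 95% intervals of the ratio over the most central zone, -0.064 to 0.37 and -0.063 to 0.36, include 0, and for Ttc37, 0.14 to 0.62 and 0.14 to 0.62, they do not. Over the middle zone the intervals of Ttc37 were 0.021 to 0.48 and -0.060 to 0.41, of which the latter includes 0, and its ratio over the most central zone in AEG-1-C75S was -0.030 when the zones were drawn from other genes. In each of these 7 genes at least 1 of the 4 intervals, over both neighbours in both sections, includes 0, as does that of Lpar6 over the most central zone in AEG-1-WT (-0.015 to 0.43).

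Several lists held few or no genes past the fold, from which nothing is read about the lists. Over all genes 1.08% were lower and 0.789% higher than in the most central zone. Against the middle zone 0.751% were higher and 0.564% lower. These shares hold beside each count here. Of 35 secreted plasma proteins compared, none was past the fold against the most central zone and 1, the complement gene C9, was lower than in the middle zone (-0.51 and -0.36). Their median ratios were 0.059 and 0.064 over the most central and -0.034 and -0.028 over the middle zone, and their sum, led by Alb, was 279360.0, 299587 and 314834 CPM in AEG-1-WT, and 300939, 324389 and 340608 CPM in AEG-1-C75S. Alb, the albumin gene, had ratios of 0.23 and 0.23 over the most central and -0.19 and -0.18 over the middle zone. None of 14 genes of the unfolded protein response, none of 17 of fatty acid and triglyceride synthesis, none of 18 of cholesterol synthesis and none of 16 of haem synthesis and iron was past the fold on either side. The 21 genes of fatty acid oxidation compared had median ratios of -0.19 and -0.20 over the most central zone; of these Acot1 was lower than in the most central zone, and Acot1 and Cyp4a32 were higher than in the middle zone. Ahr, the receptor for dioxins, was the only 1 of 8 xenobiotic receptors past the fold, higher than in the middle zone (0.37 and 0.43), while Nr1i3, the constitutive androstane receptor, had 0.14 and 0.14.

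Marker sums of other cells differed along the axis as well, and in summed UMIs fewer cells of a type and less RNA per cell cannot be told apart. The 11 markers of Kupffer cells, the macrophages of the sinusoids, summed to 1293, 1521 and 1666 CPM in the AEG-1-WT section and 1676, 2014 and 2225 CPM in AEG-1-C75S, with 95% Poisson intervals of 1495 to 1547 and 1984 to 2045 in the belt. Their most abundant gene was Cd5l, and no marker was at 0. Marco (0.56 and 0.38) and Timd4 (0.36 and 0.41) were past the fold over the most central zone (0.789% of all genes were). Sinusoidal endothelial markers, led by Clec4g, summed to 1158, 1241 and 1190.4 and 1127, 1259 and 1215 CPM and were highest in the belt in both sections, although none of 11 compared genes was past the fold on either side. Stellate cell markers, led by Ecm1, summed to 741, 823 and 779.7 and 913, 965 and 1022 CPM. All 3 sums of sinusoidal cells were thus higher in the belt than in the most central zone in both sections.

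Markers of bile ducts, connective tissue and blood were summed in the same way. Cholangiocyte markers summed to 30.4, 51.9 and 93.8 CPM in the AEG-1-WT section and 37.2, 59.2 and 58.6 CPM in AEG-1-C75S, mostly Spp1, at 44.3 and 49.4 CPM, with Krt19 at 0.343 and 0.358 CPM and Cldn4 at 0 UMIs in AEG-1-WT. Connective tissue markers, led by Col3a1, summed to 159.8, 148 and 261 and 138, 114 and 114 CPM, and stood at 396 CPM in the outer mid-lobular zone of AEG-1-WT against 165 in AEG-1-C75S. Leukocyte markers, led by Cd74, summed to 496, 540.5 and 641 and 564, 622 and 646 CPM. Red blood cell genes, led by Hbb-bs with Slc4a1 at 0, summed to 803, 479.6 and 746 CPM in AEG-1-WT, lowest in the belt, and to 477, 350.4 and 311 CPM in AEG-1-C75S, in descending order. The part of these lists in the ratios of hepatocyte genes was not tested gene by gene. Without the tenth of spots richest in connective tissue, bile duct, red blood cell and leukocyte genes, 80 genes were lower and 64 higher than in the most central zone, 69 and 54 of them among the 92 and 67 counted with all spots.

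**Figure D4:**
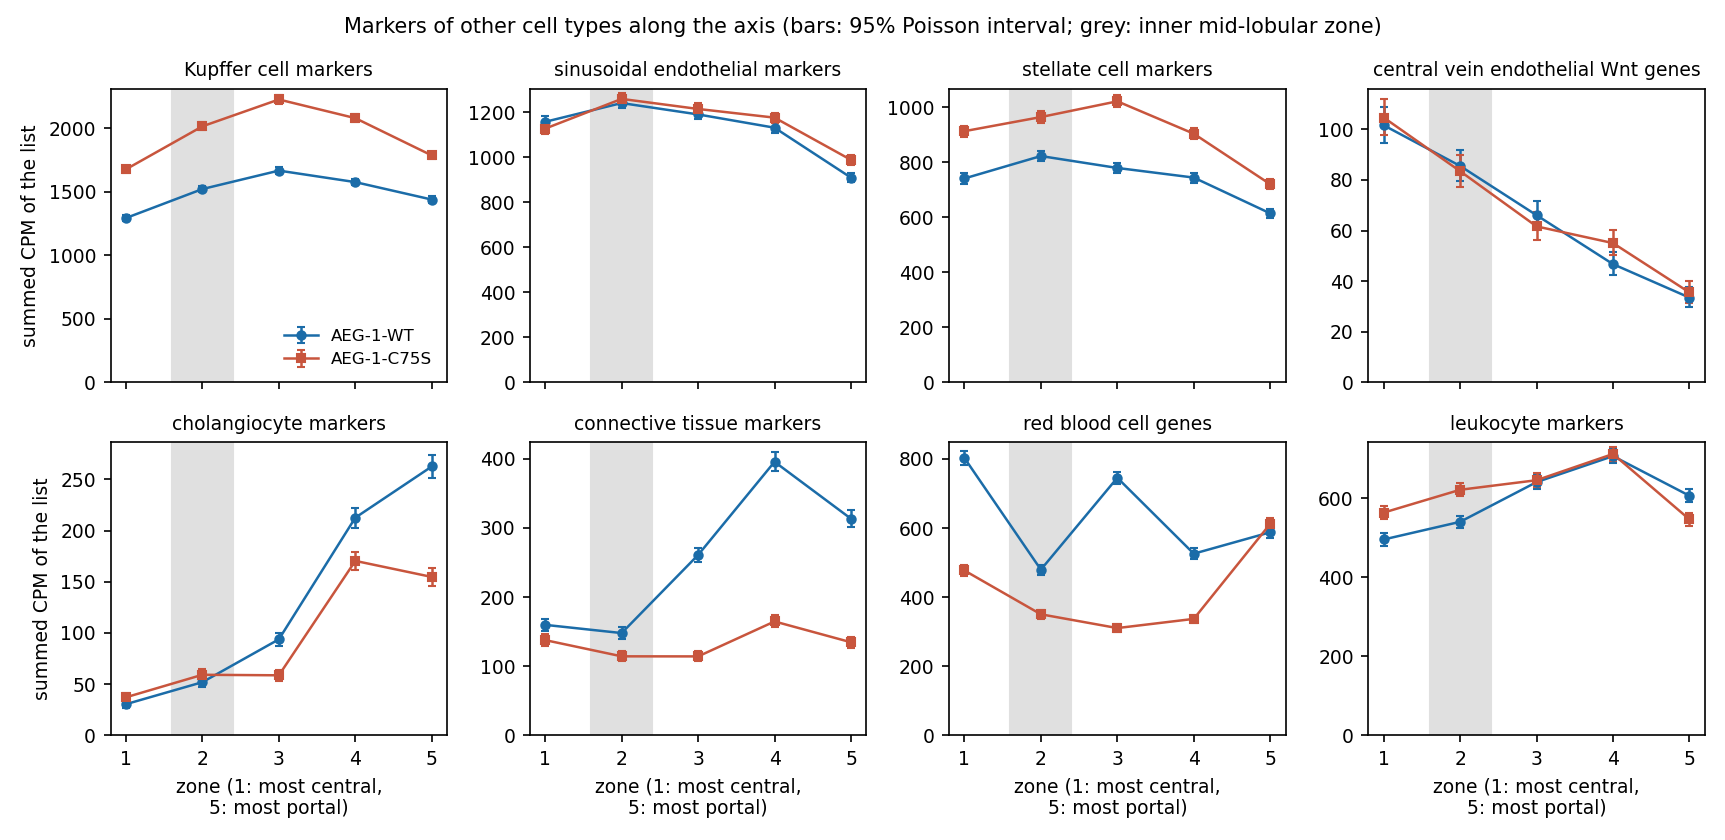
Summed CPM of 8 marker lists (vertical axes, each from 0) along the 5 zones from most central (1) to most portal (5) in AEG-1-WT (circles) and AEG-1-C75S (squares), 1 section each, with 95% Poisson intervals as bars and the inner mid-lobular zone in grey. In the grey band the Kupffer list stands above its central level in both sections, and the red blood cell list stands at 479.6 CPM in AEG-1-WT between 803 and 746.

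Between the genotypes, 188 of 8808 genes were higher in the belt of AEG-1-C75S by 1.5-fold or more (2.13%) and 307 were lower (3.49%), counted where both sections together held 100 UMIs or more. Of 13 immediate early genes 8 were higher in AEG-1-C75S and none lower, and of 16 clock genes 9 were lower and 1 higher. The other lists held fewer genes past the fold or genes in both directions. With totals taken without the 20 most abundant genes the counts were 244 higher and 236 lower, with ratios centred on the median gene 244 and 234, and with edgeR's TMM factors 245 and 234, so the surplus of lower genes depended on the scaling. These are differences between 1 section and 1 section, in which genotype, animal, block and capture area cannot be told apart. Of the 188 genes 68 were past the fold in every other zone as well and 162 pointed the same way in all of them. Of the 307 it was 83 and 261. Past the fold in no other zone were 37 of the 188 and 90 of the 307. Mtdh itself stood at 74.5 CPM in the AEG-1-WT section and 73.8 CPM in AEG-1-C75S, a log2 ratio of -0.012 (95% interval -0.17 to 0.15). A change of 1 residue need not alter the amount of RNA, so this does not check the labels. None of 9 genes of AEG-1 and of protein palmitoylation was past the fold.

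Igfbp1, an insulin-repressed binding protein of growth factors, was farthest up among genes with 500 UMIs or more over both sections, at 55.4 CPM in the AEG-1-WT section and 339 CPM in AEG-1-C75S, a log2 ratio of 2.61 (2.47 to 2.75) against 2.50 to 2.87 in the other zones. G6pc, the glucose-6-phosphatase that ends gluconeogenesis, stood at 59.3 and 188 CPM, a ratio of 1.67, and reached 0.81 to 1.89 elsewhere, lowest in the most portal zone, where AEG-1-WT has its own peak of the gene. Of 16 insulin and FOXO1 targets 7 were higher and 1, Foxo3, lower, beside 2.13% and 3.49% of all genes. Txnip, a glucose-responsive arrestin, had 1.28, Gadd45g, a stress gene, 1.82, and Irs2, an insulin receptor substrate, 0.72, while Pck1, of the same list, had -0.24. Depp1, a further FOXO target, stood at 73.4 and 193 CPM.

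The 13 immediate early genes had a median log2 ratio of 0.66 against -0.048 over all genes compared. Egr1 stood at 104 and 312 CPM, Jun at 30.2 and 74.8, Btg2, an antiproliferative gene induced with them, at 16.5 and 52.5, and Fos at 4.12 and 42.3 on 36 and 355 UMIs. With the same minimum, which leaves out Fos, the remaining genes among the 12 farthest up were Tubb2a, a tubulin, with a ratio of 1.63, Marco, the scavenger receptor of Kupffer cells, with 1.62, Serpina7, the thyroxine-binding globulin, with 1.58, Rgs16, a regulator of G protein signals, with 1.26, and the transcription factor Foxq1, at 27.5 and 65.4 CPM. The 11 Kupffer markers had a median ratio of 0.42 in the belt, against -0.048 over all genes compared. Only Marco was past the fold, beside 2.13% of all genes higher in AEG-1-C75S. Clec4f, a marker particular to Kupffer cells, stood at 259 and 282 CPM.

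The 16 clock genes compared had a median log2 ratio of -0.87. Usp2, a deubiquitinase under clock control, stood at 53.2 CPM in the AEG-1-WT section and 4.17 CPM in AEG-1-C75S (465 and 35 UMIs), a ratio of -3.67 (-4.21 to -3.17), Dbp at 238 and 76.2 CPM, Tef at 108 and 47.7, and Per2, a repressor of the clock, at 32.5 and 6.56. Arntl, the activator that works in the opposite phase, was the gene that stood higher, at 5.605 and 18.96 CPM. The part of the clock in the other ratios was not tested, and the hour at which the animals were killed is not given in the sources used here.

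Metabolic genes on the lower side included Serpina1e, an alpha-1-antitrypsin paralog, at 1030.2 and 101 CPM, a ratio of -3.35 (-3.45 to -3.24). The other 4 paralogs of the list ran from -0.42 to 0.075, and near-identical copies can share probes. Cyp7a1 stood at 241 and 88.6 CPM, Thrsp, a switch of lipid synthesis, at 111 and 37.8, Upp2, a uridine phosphorylase, at 126 and 42.6, Prodh, which starts proline breakdown, at 272 and 102, and the metallothionein Mt2, which binds zinc, at 826 and 287. A1bg, a plasma glycoprotein, Tk1, a thymidine kinase, and the apolipoprotein Apol7a had ratios of -1.52, -1.49 and -1.27. Of 42 genes of the urea cycle and amino acid catabolism 6 were lower (3.49% of all genes were) and none higher, with a median of -0.36 against -0.048 over all genes: Prodh, Tat, a tyrosine aminotransferase, at 868 and 426 CPM, the alanine aminotransferases Gpt and Gpt2, Sds and Gls2. Of 12 metallothioneins and glucocorticoid targets 5 were lower and 2, Zbtb16 and Cdkn1a, higher, beside 3.49% and 2.13% of all genes.

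In lipid metabolism the directions were mixed; over all genes 2.13% were higher and 3.49% lower, which holds beside each count here. Of 22 genes of fatty acid oxidation and ketogenesis 5 were higher in AEG-1-C75S and none lower, among them Ehhadh, a peroxisomal oxidation enzyme, at 396 and 691 CPM, and the omega-hydroxylases Cyp4a10 and Cyp4a14, with ratios of 0.69 and 0.69. Scd1, the stearoyl-CoA desaturase, stood at 674 and 1373 CPM and Elovl5, a fatty acid elongase, at 259 and 419.6, while Fasn, the fatty acid synthase, had a ratio of -0.27. Of 13 genes of the growth hormone axis 4 were higher, Igfbp1, Igfbp2 and the signalling inhibitors Socs2 and Cish, and 1, Mup11, was lower. Of 18 cholesterol genes 4 were lower, among them the mevalonate pathway enzymes Mvk and Mvd, and 1 higher, Insig2. Nr0b2, which represses Cyp7a1, stood at 40.4 and 90.6 CPM. Of 18 pericentral cytochrome P450 genes Cyp3a44 was higher (0.85) and Cyp2b13 lower (-1.05), none of 33 conjugating enzymes and none of 12 Wnt targets was past the fold, and the central markers Cyp1a2 and Oat had ratios of -0.23 and -0.54. Hamp stood lower, at 957 and 503 CPM, and Igfbp2 higher, at 1028 and 2309 CPM.

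**Figure D5:**
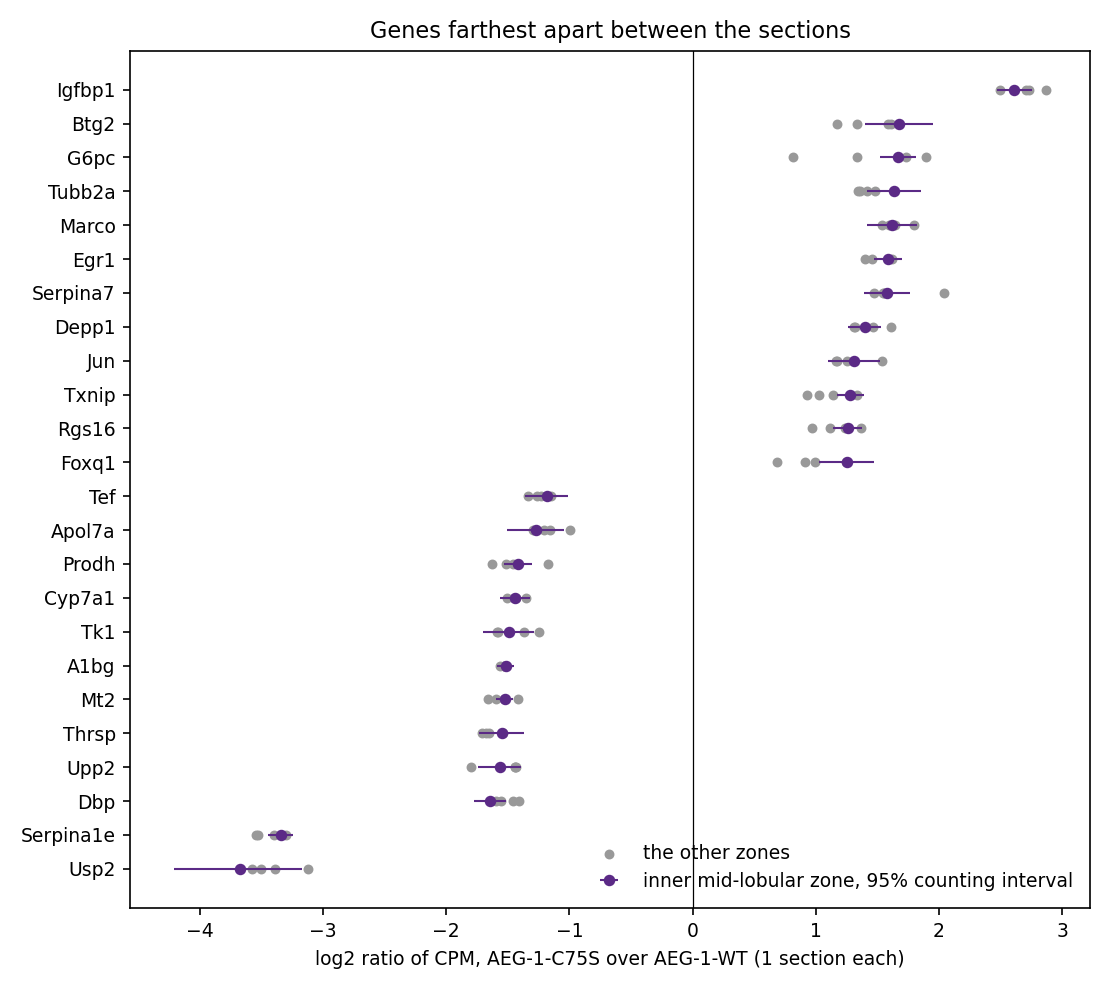
Log2 ratio of CPM, AEG-1-C75S to AEG-1-WT (horizontal axis, 1 section each) for the 12 genes farthest up and the 12 farthest down in the inner mid-lobular zone (vertical axis), with the zone in purple, its 95% counting interval as a bar and the 4 other zones as grey points. Every gene lies on the same side of 0 in all 5 zones, and G6pc has the widest spread among the genes farthest up.

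The genotype ratios in the belt were also set beside those of the rest of the lobule. For 3956 genes that held 500 UMIs or more, the genotype ratio in the belt (AEG-1-C75S to AEG-1-WT, log2) was set against its median over the 4 other zones of the same sections, and for 3673 genes the difference was at most 0.2. It reached 0.5 in 3 genes, Spp1, Igkc and Hist1h1d, a count that was 0 with spots thinned to 5000 UMIs and in the narrower slice, 1 without the tenth of spots highest in other cell types and 7 with equal weight per spot. Farthest above the other zones were Spp1 (0.16 in the belt against -0.50), the collagen Col3a1 (-0.42 against -0.87), Mtmr10, a phosphatase-like protein (0.44 against 0.0094), Pkp2, a plakophilin of cell junctions (0.72 against 0.29), and Psme2b, a proteasome activator gene (0.55 against 0.13). Spp1 and Col3a1 are markers of bile ducts and connective tissue, whose lists summed to 213 and 396 CPM in the outer mid-lobular zone of AEG-1-WT and to 170.4 and 165 CPM in AEG-1-C75S. Their part in these ratios was not tested. Farthest below were the antibody gene Igkc (-0.24 against 0.40), the histone Hist1h1d (-0.36 against 0.18), Tap1, a peptide transporter of antigen presentation (-0.60 against -0.17), Acot1 (0.54 against 0.96) and Asnsd1, an asparagine synthetase-like gene (-0.38 against 0.027). Of these 10 genes Acot1 had the most UMIs in the belt, 794 and 1107, and stood at 135, 90.8 and 47.7 CPM in the AEG-1-WT section and 198, 132 and 97.7 CPM in AEG-1-C75S.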

How the data were processed

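Liver sections of 1 AEG-1-WT and 1 AEG-1-C75S mouse were profiled on 10x Visium slides with probes made for formalin-fixed material. Per the labels and methods, the authors mapped the reads with Space Ranger 2.0.1 to the mouse genome mm10 and deposited raw UMI counts for each spot and each of 19465 genes, in which 11 gene symbols repeat. No other column was present to leave out (0 columns). Spot positions were not used here.

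Spots were grouped by the ranked Cyp2f2 to Cyp2e1 ratio, and the UMIs of all spots in a zone were added up and divided by their total (CPM). Ratios were taken on the log2 scale with exact binomial 95% intervals, and list sums have exact Poisson intervals. They cover counting error only. A gene counted as different from a neighbouring zone past a log2 ratio of 0.32 in both sections, as highest or lowest past 1.1-fold, and between genotypes past 1.5-fold, with at least 100 UMIs. There were 42246988 and 41674347 UMIs in the spots kept, after 7 and 4 spots above 50000 UMIs were left out; no doublet caller applies to spots. The zones were cut from the same counts, and with 1 section per genotype nothing was tested.

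Genes were named where they were study markers or list members. Others were named, on at least 500 UMIs, as the 8 farthest from each neighbour or as the highest or lowest (at most 10 each). With the same minimum, the 12 farthest apart between genotypes and the 5 farthest from the other zones were named in each direction. The 6 steepest and 6 broadest central genes needed at least 300 UMIs per section over the 5 zones instead. The members, the 35 gene lists and these rules were chosen with earlier results of these data known. The alternatives changed the ranking genes, the spot filter, the scaling (including TMM factors of edgeR 4.0.16 in R 4.3.3), the weights, the depth and the minimum count. The scripts ran under Python 3.11.15 (scipy 1.17.1, numpy 2.4.6, pandas 2.3.3), and the interval code was tested on simulated data. Promoter sequences came from RefSeq (GRCm38.p6). Results for some genes are not reported here.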

Additional observations from a re-analysis of the deposited data

Results flagged for a closer look

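The 5 genes listed here had a ratio of the inner mid-lobular zone to a neighbour that lay on opposite sides of 0 in the sections. They were not the only such genes: over the middle zone Spp1 had -0.79 in AEG-1-WT against 0.068 in AEG-1-C75S. With 1 section per genotype the differences were not tested. Abcc2, a bile canalicular export pump, had log2 ratios over the most central zone of 0.090 in AEG-1-WT against -0.085 in AEG-1-C75S. Over the middle zone, the stellate cell gene Ecm1 had 0.096 and -0.099, and Pkp2, a plakophilin of cell junctions, had -0.27 and 0.19. The haemoglobin genes Hba-a2, with -0.66 and 0.16, and Hbb-bs, with -0.65 and 0.18, stood lowest in the belt of AEG-1-WT but not of AEG-1-C75S.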

How the results depend on the processing

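No paired analysis was possible because there was 1 section per genotype. The values other than the counts of genes past a fold were recomputed under all alternatives but the minimum number of UMIs. Of these, 4475 were classed as the same, 384 as moved and 1 as reversed, by a tolerance that is not given here. Of the 384, 121 came with the axis from other genes, 106 with thinned spots and 71 with ranks over both sections together. The log2 ratio that reversed was that of Ttc37 over the most central zone in AEG-1-C75S. It was -0.030 with the axis from other genes, and the cause was not tested. Among the alternatives run, the largest effect on counts came from the minimum number of UMIs, which changes how many genes are compared. With a minimum of 30 UMIs, 189 genes were lower and 208 higher than in the most central zone, 153 lower and 167 higher than in the middle zone, 110 highest and 129 lowest in the belt, and 381 higher and 572 lower in AEG-1-C75S. With 300 UMIs these counts were 44, 29, 16, 31, 13, 12, 77 and 137. The count of genes whose genotype ratio departs from the other zones has its own minimum and was not run under these settings. With spots thinned to 5000 UMIs, which discards counts, 33 genes were higher than in the most central zone, 31 lower than in the middle zone, 117 higher and 190 lower in AEG-1-C75S, and 0 departed from the other zones. In the narrower slice 79 were highest, 94 lowest and 0 departed. With equal weight per spot 7 departed, and without the tenth of spots highest in other cell types 1. Totals without the 20 most abundant genes gave 111 genes higher than in the most central zone and centring on the median gene 108. Against the most central zone, 46 of the 92 lower and 30 of the 67 higher genes were shared with the axis from other genes. With ranks over both sections together it was 45 and 39, and with spots thinned to 5000 UMIs 22 and 16. Of the 48 genes lower and 64 higher than in the middle zone, the axis from other genes shared 19 and 31 and the thinned spots 11 and 20. Of the 188 genes higher and 307 lower in AEG-1-C75S, the axis from other genes shared 127 and 193 and the thinned spots 56 and 84. Which genes were called thus depended on where the belt was drawn and on depth. Depth and 1 section per genotype limit all counts.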
